A study of Homo sapiens with 4 samples.

Results

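The c-MYC peaks of MIA PaCa-2 cells treated with the MEK inhibitor trametinib (10 nM, 8 h) were compared with those of cells given the solvent DMSO for 8 h. MIA PaCa-2 is an established human line of pancreatic ductal adenocarcinoma (PDAC), and each treatment is represented by 1 library made by chromatin immunoprecipitation and sequencing (ChIP-seq) with a c-MYC antibody. The trametinib list held 5431 peaks and the DMSO list 9552, so 14983 of the 28327 peaks in the 4 lists of the series entered the comparison. The series further holds a library made with non-specific IgG from DMSO-treated cells, whose peaks served here to mark c-MYC peaks found without the antibody as well, and a c-MYC library from cells given AMG510, which was not compared here.

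A peak was counted as kept when a peak of the other list overlapped it by at least 1 bp, and as present in 1 list otherwise. A gene had a promoter peak when a summit lay within 1 kb of the start of a protein-coding transcript. Where a gene had several promoter peaks in a library its strongest is given. Genes are called kept when both libraries had a promoter peak, DMSO only when trametinib had none, and new when DMSO had none. Each list is a single library of a single cell line, so every difference below is one between 2 libraries without a replicate, and no test was made. The intervals are 95% intervals for counting error, and they treat peaks as independent.

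c-MYC is a transcription factor that binds DNA as a dimer with MAX, with highest affinity at the E-box CACGTG and also at variants such as CACGCG. It binds near the starts of very many active genes, and its best known targets serve growth, namely ribosomal proteins, ribosome assembly, translation, nucleotide synthesis and glycolysis. MEK phosphorylates ERK, the last kinase of the RAS pathway, and ERK phosphorylates and stabilises the c-MYC protein. Trametinib blocks MEK.

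Depth was similar, with 24000000 tags in peak calling for DMSO and 24800000 for trametinib, as recovered from the lists. Tags were extended to 177 bp in DMSO and to 163 bp in trametinib before they were piled up. With both values taken into account, an unchanged site would carry 0.952 times as many tags in trametinib as in DMSO. Pileups are therefore given per library, and libraries are compared by fold enrichment. This is the summit pileup divided by the local background, after the same small constant was added to each, so it is below the plain ratio. The median pileup was 13 tags in DMSO and 12 in trametinib, and the smallest pileup called was 8 tags in both.

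The reference sequence around 11 summits gives examples from the groups of peaks. They were taken from the 201 bp around summits of the genes described below, on the plus strand of GRCh38, for windows with at most 30 bases of annotated UTR. LDHA, MXD1, RPS27A and RPL10A stand for promoters bound in both libraries, MSN, CAMKK2 and RPIA for the strongest promoters bound in DMSO only, ZKSCAN2 for those bound in trametinib only, and FASN for a promoter where the summit differed. Capitals mark CACGTG and the noncanonical CACGCG on either strand. Among promoters bound in both libraries or in DMSO only, these examples hold an E-box more often than their groups, whose shares are given below.

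LDHA, DMSO summit, chr11:18394276-18394476: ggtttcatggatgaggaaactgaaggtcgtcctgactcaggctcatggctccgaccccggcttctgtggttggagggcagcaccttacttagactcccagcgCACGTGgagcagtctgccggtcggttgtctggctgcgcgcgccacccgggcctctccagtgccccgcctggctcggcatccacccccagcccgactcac

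LDHA, trametinib summit, chr11:18394389-18394589: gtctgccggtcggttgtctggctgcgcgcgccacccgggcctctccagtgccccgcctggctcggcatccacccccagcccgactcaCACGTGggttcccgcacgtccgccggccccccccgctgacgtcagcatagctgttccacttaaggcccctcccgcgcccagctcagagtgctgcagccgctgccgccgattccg

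MXD1, DMSO summit, chr2:69914236-69914436: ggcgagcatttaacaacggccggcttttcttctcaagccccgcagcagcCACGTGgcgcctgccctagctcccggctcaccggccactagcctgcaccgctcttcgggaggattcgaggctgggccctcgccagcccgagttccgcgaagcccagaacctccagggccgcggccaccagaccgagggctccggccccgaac

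RPS27A, trametinib summit, chr2:55233054-55233254: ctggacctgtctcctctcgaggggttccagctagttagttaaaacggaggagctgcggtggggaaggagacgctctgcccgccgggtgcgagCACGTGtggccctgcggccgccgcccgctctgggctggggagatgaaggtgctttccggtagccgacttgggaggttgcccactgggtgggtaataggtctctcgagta

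RPL10A, trametinib summit, chr6:35468446-35468646: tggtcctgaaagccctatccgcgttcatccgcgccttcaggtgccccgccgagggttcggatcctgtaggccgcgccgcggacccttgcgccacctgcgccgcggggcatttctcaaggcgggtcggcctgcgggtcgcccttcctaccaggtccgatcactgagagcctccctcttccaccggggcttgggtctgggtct

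MSN, DMSO summit, chrX:65667383-65667583: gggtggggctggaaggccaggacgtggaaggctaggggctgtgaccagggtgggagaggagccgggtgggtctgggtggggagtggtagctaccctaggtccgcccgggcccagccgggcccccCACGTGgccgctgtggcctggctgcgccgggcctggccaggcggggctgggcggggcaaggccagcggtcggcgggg

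CAMKK2, DMSO summit, chr12:121296383-121296583: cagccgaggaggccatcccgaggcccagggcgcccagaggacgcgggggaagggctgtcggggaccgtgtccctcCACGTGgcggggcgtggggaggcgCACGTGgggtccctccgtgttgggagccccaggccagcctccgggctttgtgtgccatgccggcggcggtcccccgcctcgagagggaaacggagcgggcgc

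RPIA, DMSO summit, chr2:88691872-88692072: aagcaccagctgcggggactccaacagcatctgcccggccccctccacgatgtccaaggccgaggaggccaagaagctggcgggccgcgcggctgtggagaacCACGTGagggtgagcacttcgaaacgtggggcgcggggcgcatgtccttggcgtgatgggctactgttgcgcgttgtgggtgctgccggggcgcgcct

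ZKSCAN2, trametinib summit, chr16:25258203-25258403: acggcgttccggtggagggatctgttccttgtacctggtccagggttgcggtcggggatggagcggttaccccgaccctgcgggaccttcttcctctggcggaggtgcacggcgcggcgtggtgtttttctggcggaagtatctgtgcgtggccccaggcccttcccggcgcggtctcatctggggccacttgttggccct

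FASN, DMSO summit, chr17:82098492-82098692: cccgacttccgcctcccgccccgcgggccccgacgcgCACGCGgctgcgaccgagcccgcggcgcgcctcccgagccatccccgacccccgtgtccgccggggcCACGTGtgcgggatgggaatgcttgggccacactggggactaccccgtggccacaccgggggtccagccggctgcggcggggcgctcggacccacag

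FASN, trametinib summit, chr17:82099174-82099374: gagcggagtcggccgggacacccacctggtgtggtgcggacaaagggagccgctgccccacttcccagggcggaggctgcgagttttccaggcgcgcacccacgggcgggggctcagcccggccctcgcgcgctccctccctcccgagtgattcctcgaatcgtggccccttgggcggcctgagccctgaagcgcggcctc

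At LDHA, lactate dehydrogenase, the E-box started 2 bp after the DMSO summit, and the trametinib summit lay next to another E-box, 13 bp before it. MSN had an E-box 24 bp after its summit, RPIA 3 bp after it and CAMKK2 a pair of them, 25 and 1 bp before it. The RPL10A and ZKSCAN2 windows held neither motif.

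Promoter peaks were called again more often than the rest of the list. A trametinib peak overlapped 17.1% of the 9552 DMSO peaks in all. Among the 4617 DMSO promoter peaks 1279 were kept, or 27.7% (26.4 to 29.0), in contrast to 357 of the 4935 other peaks, or 7.23% (6.54 to 7.99). The difference was 20.5 percentage points (19.0 to 21.9). In the opposite direction, 30.6% of the 5431 trametinib peaks overlapped a DMSO peak, and this share was 61.0% (58.9 to 63.1) for the 2124 promoter peaks and 11.1% (10.1 to 12.2) for the 3307 others.

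**Figure D1:**
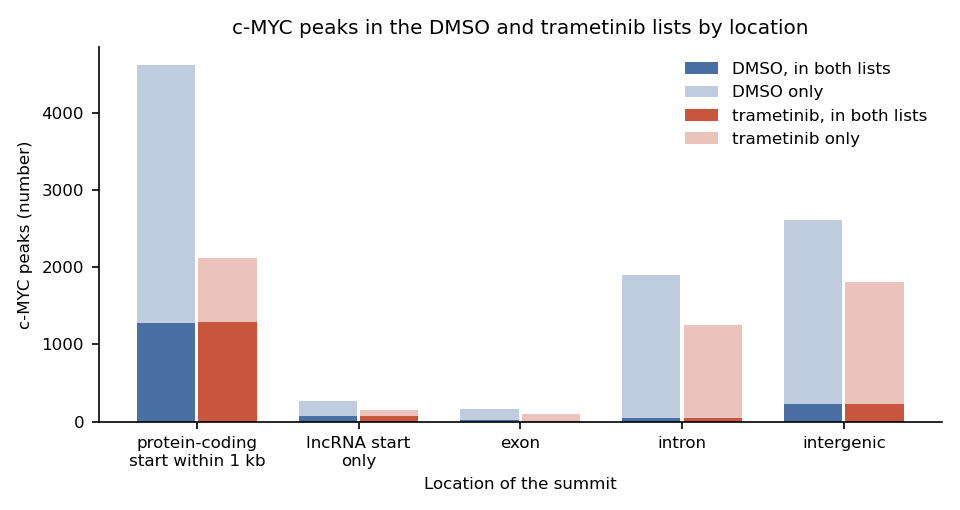
Number of c-MYC peaks (y axis) by the location of the summit (x axis) in the DMSO list and the trametinib list, 1 library each. The solid part of a bar holds the peaks that overlap a peak of the other list and the pale part those in 1 list only, and the overlapping part is largest at promoters, with 1279 DMSO and 1296 trametinib peaks.

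Away from protein-coding starts the shares differed by location. Peaks whose summit was near the start of a long noncoding RNA only were kept in 69 of 269 cases, or 25.7% (20.8 to 31.2), close to the promoter share. Intron peaks were kept in 47 of 1898 cases, 2.48% (1.87 to 3.28). Of 2608 intergenic peaks 225 were kept, but 131 of these lay on an IgG peak. IgG peaks made up 40.3% (35.4 to 45.5) of the kept peaks outside promoters, that is 144 of 357, and 1 of the 1279 kept promoter peaks. With peaks on IgG peaks set aside, 213 of 4753 other peaks were kept, or 4.48% (3.93 to 5.11), and the difference from promoters was 23.3 points (21.8 to 24.7). Among peaks with a score above 60 the order was the opposite, with promoter peaks kept less often by 9.27 points (−13.7 to −5.04), and without the peaks on IgG peaks it was again 7.09 points in favour of promoters (2.89 to 10.8).

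The trametinib list was shorter on every chromosome, with a log2 ratio of peak numbers between −0.51 on chromosome 21 and −1.34 on chromosome 11. The share of promoter peaks kept was between 13.0% on chromosome 15 and 37.3% on chromosome 21, in lists of 92 and 59 promoter peaks.

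Stronger DMSO peaks were kept more often. In the weakest decile of DMSO fold enrichment 10.7% of promoter peaks were kept (7.75 to 14.6), and in the strongest, from 6.49-fold upward, 65.8% (62.4 to 69.1). Outside promoters and off IgG peaks these shares were 1.29% (0.66 to 2.53) and 50% (41.1 to 58.9). Within each decile promoter peaks were kept more often than other peaks off IgG peaks, and the intervals did not overlap in any decile. With peaks on IgG peaks included, 69.1% of other peaks in the strongest decile were kept (143 of 207), above the promoter share. A decile is not equal strength, since the strongest reached 31.3-fold. DMSO promoter peaks also held more tags, a median of 16 against 12 at other peaks, and shares at like tags were not compared. All of the 50 strongest DMSO peaks had a trametinib peak, and 18 of these lay on IgG peaks. Of the 500 strongest, 398 had one.

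**Figure D2:**
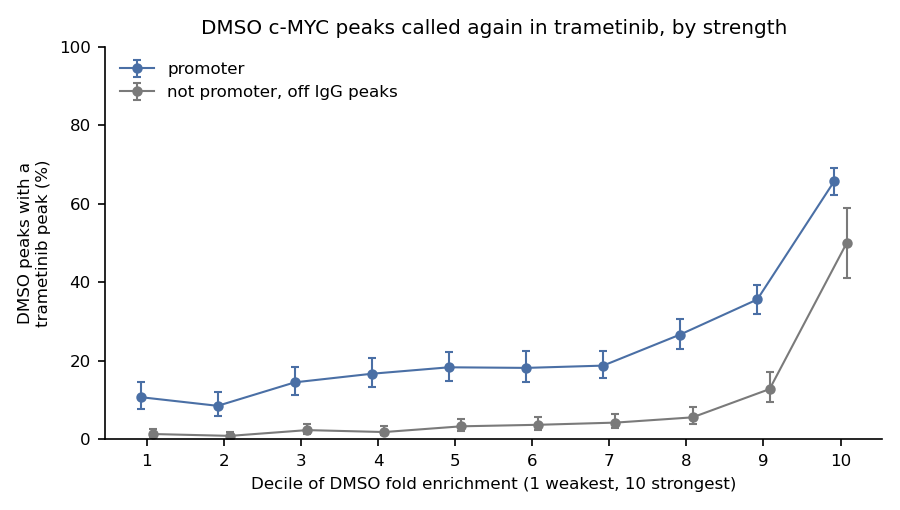
Share of DMSO c-MYC peaks overlapped by a trametinib peak (y axis, percent) against the decile of DMSO fold enrichment (x axis), for promoter peaks and for other peaks off IgG peaks. Points are shares with 95% Wilson intervals, and the promoter share runs from 10.7% in the weakest to 65.8% in the strongest decile.

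A DMSO peak near the calling limit can go uncalled without much change in its pileup. For each DMSO peak a limit, the smallest summit pileup that could be called in trametinib, was computed from its DMSO background. The DMSO pileup was scaled by 0.952. The trametinib background at these sites was not known and no width was required, though the shortest trametinib peak was 163 bp. The limit may thus be too low. The 3338 promoter peaks found in DMSO only stood at a median of 1.48 times that limit, and 50.5% of them were under 1.5 times. The 1279 kept promoter peaks stood at a median of 1.98 times the limit. A set of 361 promoter peaks, 10.8% of those in DMSO only, was at 2 times the limit or more and still had no trametinib peak. The pileup below the limit in trametinib is not known.

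Where peaks overlapped, the trametinib peak was usually the lower one. The 1307 overlapping pairs at promoters had a median fold enrichment of 5.85 in DMSO and 4.97 in trametinib. The median log2 ratio of trametinib to DMSO was −0.23 (quartiles −0.51 and 0.03), and 72.9% of pairs were lower in trametinib. The median pileup was 22 tags in DMSO and 16 in trametinib. For pileups divided by the tag total of the library the median log2 ratio was −0.49, of which the shorter extension alone gives −0.12, and the local background at these sites was also lower, with a median of −0.32. Trametinib peaks were also narrower, with a median width of 269 bp in contrast to 407 bp. The summits lay a median of 65 bp apart. The 150 pairs outside promoters that lay on IgG peaks had a median log2 ratio of 0.01, and 49.3% of these were lower in trametinib, though for pileups divided by the tag total the median was −0.15 and 70% of pairs held fewer tags, while the 217 other pairs off IgG peaks had a median of −0.17.

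**Figure D3:**
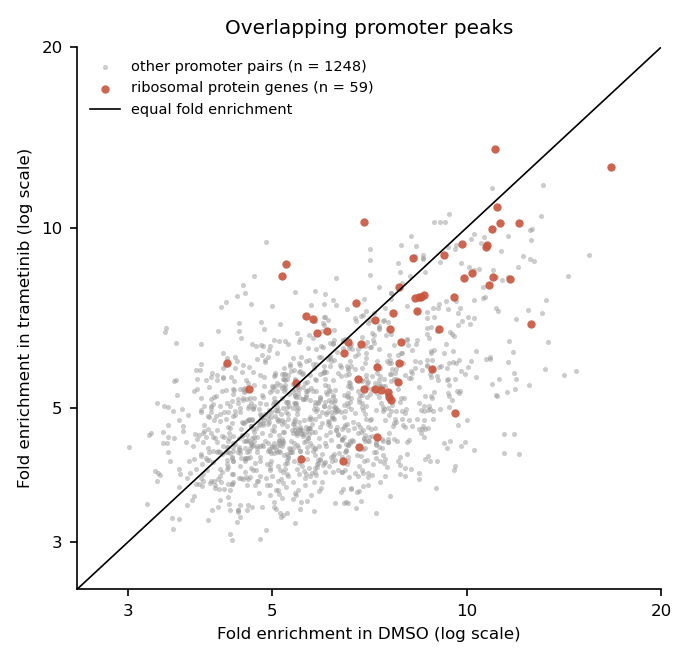
Fold enrichment in trametinib (y axis, log scale) against DMSO (x axis, log scale) for the 1307 overlapping pairs of promoter peaks, with the 59 pairs at ribosomal protein genes in red and the line of equal values. Most points lie under the line, 953 of all pairs and 45 of those at ribosomal protein genes.

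The E-box was more frequent at kept promoters. Within 100 bp of the DMSO summit a CACGTG was present in 26.0% of kept promoter peaks (23.7 to 28.5) and in 13.5% of those in DMSO only (12.3 to 14.7), a difference of 12.6 points (9.96 to 15.3). At promoter peaks in trametinib only the share was 6.76% (5.24 to 8.68), close to the 5.64% (5.33 to 5.97) found in the same window around all 19630 canonical protein-coding starts. CACGCG gave the same order, with 29.5% (27.0 to 32.0) at kept peaks, 20.9% (19.6 to 22.3) in DMSO only, 13.4% (11.3 to 15.9) in trametinib only and 10.8% (10.3 to 11.2) at all starts. Within the strongest decile, 72.9% of DMSO promoter peaks with an E-box were kept (67.2 to 78.0) and 62.1% of those without (57.8 to 66.3). In the next strongest decile these shares were 35.9% (28.2 to 44.4) and 35.5% (31.5 to 39.8). The intervals with and without an E-box overlapped in every decile but the strongest. Outside promoters and off IgG peaks, 23.5% of kept peaks (18.3 to 29.6) and 5.33% of those in DMSO only (4.72 to 6.02) held an E-box, and the share was 2.65% in trametinib only and 2.56% in IgG peaks.

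Motifs of other factors separated the groups less. GGGCGG, the GC box, was within 100 bp of 63.2% of kept and 58.7% of DMSO-only promoter summits, and of 54.0% of all starts. CCAAT was within 100 bp of 7.51% and 9.50%, respectively, and of 25.4% of all starts. The windows of all starts were centred on the start, whereas summits lay a median of 86 bp downstream of it for kept and 82 bp for DMSO-only promoter peaks. For every motif, shares at summits and at all starts are thus from unlike positions. For the ETS motif CCGGAAG, the AP-1 motif TGANTCA, the CRE motif TGACGTCA and the NRF1 motif, the interval of the difference between kept and DMSO-only promoter peaks held 0. All motifs were searched on both strands, and a match says only that the letters are there.

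**Figure D4:**
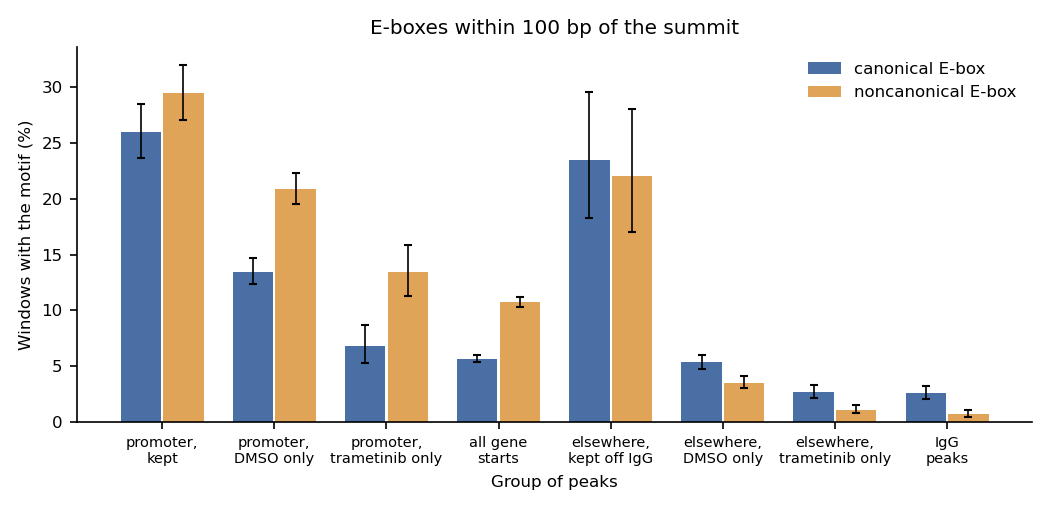
Share of 201-bp windows around summits that hold the canonical or the noncanonical E-box (y axis, percent) for groups of peaks and for all gene starts (x axis), with 95% Wilson intervals. Both motifs are most frequent at kept promoter peaks, at 26.0% and 29.5%, and promoter peaks in trametinib only are near all gene starts.

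Counted by gene, DMSO had a promoter peak at 24.2% and trametinib at 11.8% of the 19663 protein-coding genes. Of the 4761 genes with one in DMSO, 1678 also had one in trametinib, which gives the background of 35.2% (33.9 to 36.6) for the gene groups below. The new genes numbered 646, or 4.33% of the 14902 genes without a DMSO promoter peak. The median DMSO fold enrichment was 5.71 at kept genes and 4.75 at the 3083 DMSO-only genes, and that of new genes in trametinib was 4.45. Since strength and retention went together, a second background was used. Among genes with a DMSO fold enrichment above 5, 48.5% were kept, and among the weaker ones 21.9%.

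The strongest promoter peaks that overlapped in both libraries were at RPSA, RPL5, PRRC2B, GDI2, RPS3A, LARP1B, BRWD1, ENSG00000288000, PLD6 and ZNF507. RPSA, a protein of the small ribosomal subunit, had a fold enrichment of 11.1 in DMSO (34 tags) and 13.5 in trametinib (43 tags), the highest of these trametinib values. RPL5, of the large subunit, had 16.7 in DMSO (86 tags) and 12.6 in trametinib (55 tags). At GDI2, a regulator of RAB membrane traffic, the values were 10.95 and 11.6. The ENSG00000288000 peak also lies at the start of SRSF6, a splicing factor, and held 44 tags in both libraries. These genes were chosen by their trametinib value, and 6 of the 10 were higher in trametinib, among them LARP1B (9.40 and 10.6), PLD6 (9.10 and 10.2) and ZNF507 (8.90 and 10.2).

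**Figure D5:**
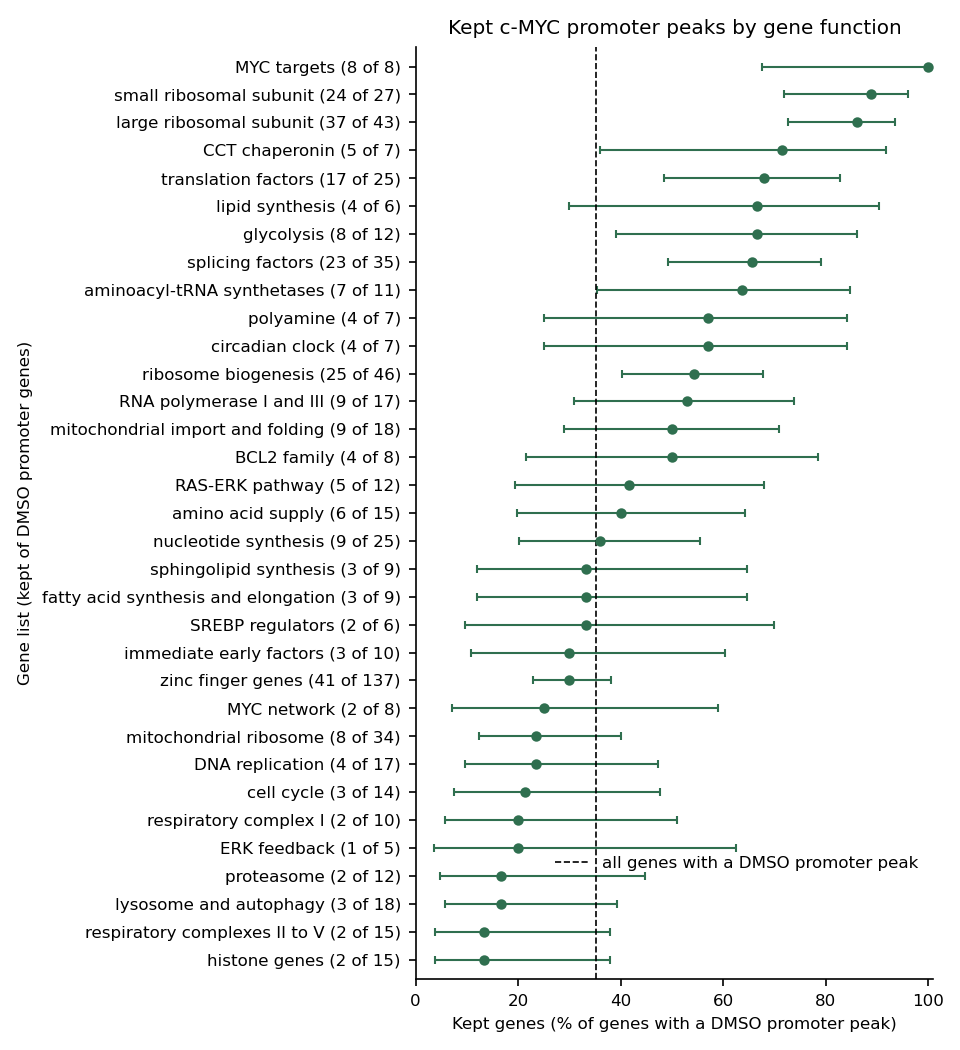
Share of genes with a DMSO promoter peak that also had a trametinib promoter peak (x axis, percent) for each gene list with at least 5 such genes (y axis, with the numbers kept and in DMSO), with 95% Wilson intervals. The dashed line marks the 35.2% of all genes, and the MYC targets and both ribosomal subunits lie furthest to its right.

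Genes of the cytosolic ribosome were mostly kept. Of the 47 large subunit genes 43 had a promoter peak in DMSO and 37 of these in trametinib, or 86.0% (72.7 to 93.4). Of the 33 small subunit genes 27 had one in DMSO and 24 of these in trametinib, 88.9% (71.9 to 96.1). Above 5-fold, 34 of 38 and 24 of 24 were kept, against 48.5% of all such genes. The peaks themselves were lower. At the 58 ribosomal protein genes whose peaks overlapped, the median fold enrichment was 7.84 in DMSO and 7.08 in trametinib, the median pileup 34.5 and 26 tags, and 45 of the 58 were lower, near the share of all promoter pairs. The summits lay a median of 24.5 bp apart.

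Single ribosomal protein genes ranged widely around this median. The lowest ratios of trametinib to DMSO were at RPL37, with 9.58 and 4.91 in DMSO and trametinib (52 and 26 tags), and RPS24, with 12.6 and 6.91 (63 and 28 tags). The highest were at RPL15, with 5.26 and 8.71 (17 and 30 tags), and RPS4X, with 5.18 and 8.30 (14 and 23 tags). The DMSO-only genes included RPLP0, RPLP2, RPL4, RPL30 and RPL34 of the large subunit and RPS12, RPS13 and RPS20 of the small subunit. The highest of these was RPL34, at 8.52 (22 tags). RPS21 was new, at 4.16 (14 tags). RPL3, RPL10 and RPS26 had promoter peaks in both libraries that did not overlap. A CACGTG lay within 100 bp of 4 of the 43 DMSO summits of the large subunit and 6 of the 27 of the small subunit. These summits include those of DMSO-only genes. Among all promoter peaks the share was 26.0% for kept ones and 12.6 points lower for those in DMSO only.

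The list of 10 MYC targets was compiled from textbook targets. Promoter peaks were found at 8 of them in DMSO, and all 8 had an overlapping peak in trametinib, where 35.2% of all genes were kept. The median log2 ratio of trametinib to DMSO was −0.60, with 7 of 8 lower, in contrast to −0.23 at all kept genes. The sets differed in starting strength, since most of the 8 had a DMSO value above 5.71, the median of kept genes. Ratios at like DMSO strength were not compared. The lowest ratio was at NME1, a nucleoside diphosphate kinase, with 14.7 in DMSO (68 tags, 52.8 to 86.2) and 5.77 in trametinib (22 tags, 13.8 to 33.3). ODC1, the rate-limiting enzyme of polyamine synthesis, had 11.8 (59 tags) and 5.72 (20 tags). CAD, which starts pyrimidine synthesis, had 6.81 and 3.64, and the translation factor EIF4A1 8.83 and 5.20. LDHA had 6.30 and 4.65, and the nucleolar proteins NPM1 and NCL had 11.6 and 9.68, and 9.59 and 9.21, respectively. PTMA had 4.64 and 4.67. CDK4 and TERT had no promoter peak in either library. Of the 8 DMSO summits, 7 had an E-box within 100 bp. This compares with 333 of all 1279 kept promoter peaks and with 255 of the 749 promoter peaks in the strongest decile, where most of the 8 lay.

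Of 13 genes of the MYC network, its partners and antagonists, 8 had a DMSO promoter peak and 2 of these a trametinib peak, or 25% (7.15 to 59.1), an interval that held the 35.2% of all genes. Both kept genes encode MXD proteins, which compete with MYC for MAX. MXD1 had 11.2 in DMSO (41 tags) and 5.59 in trametinib (21 tags), and MXD3 8.03 (38 tags) and 4.92 (19 tags). MAX itself (5.35, 18 tags), MYCL (4.31, 15 tags), the MAX partners MXI1 (6.23, 19 tags), MNT (5.06, 26 tags) and MGA (4.66, 11 tags), and MLXIP (6.55, 22 tags), which pairs with MLX, had a peak in DMSO only. MYC, MYCN, MXD4, MLX and MLXIPL had none in either library.

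Ribosome assembly genes were kept at 25 of 46, or 54.3% (40.2 to 67.8). Above 5-fold 23 of 36 were kept. The kept genes with the highest values were LTV1 (12.5 in DMSO and 9.91 in trametinib), PNO1 (11.9 and 7.04), NPM1 and BYSL (11.6 and 5.98), and 20 of the 25 were lower in trametinib. DMSO-only genes included the methyltransferase FBL of the snoRNPs (8.74), its partner NOP58 (7.46) and GAR1 (8.97). POLR1B, the second largest subunit of RNA polymerase I, was among the strongest DMSO-only promoters of the genome. It had 11.04 and 46 tags, against a computed limit of 11 in trametinib. Of 17 RNA polymerase I and III genes with a DMSO peak 9 were kept, among them GTF3A (8.09 and 4.20) and POLR3D (7.55 and 5.01), which act in transcription by RNA polymerase III.

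Translation factors were kept at 17 of 25 genes, 68.0% (48.4 to 82.8). Among those without a DMSO promoter peak 4 were new, beside 4.33% of all 14902 genes without one. EIF5A had 12.2 in DMSO (81 tags) and 8.96 in trametinib (42 tags), and EIF4G1, the scaffold of the cap-binding complex, 11.6 (84 tags) and 8.29 (45 tags). EIF4E, which binds the cap, had a peak in DMSO only (6.01, 18 tags), as did GSPT1 (7.16, 22 tags). EIF3J (6.81, 16 tags) and EIF6 (5.89, 17 tags) were new. Aminoacyl-tRNA synthetase genes were kept at 7 of 11, led by the complex scaffold AIMP2 (12.4 and 7.28). Splicing factor genes were kept at 23 of 35, 65.7% (49.2 to 79.2), with HNRNPA2B1 at 11.6 in DMSO and 6.56 in trametinib, SF3B3 at 11.3 and 9.14, and HNRNPK at 10.3 and 9.76. The core snRNP genes SNRPB (8.91), SNRPA1 (7.84), SNRPE (6.65) and SNRPF (6.42) were in DMSO only.

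Glycolysis genes were kept at 8 of 12, 66.7% (39.1 to 86.2), and all 8 were lower in trametinib, with a median log2 ratio of −0.45. With a fold enrichment above 5 required in both lists 2 of 6 were kept, 6.23 points above all genes. HK2, hexokinase, had 10.6 in DMSO (51 tags) and 7.63 in trametinib (29 tags), and the glucose transporter SLC2A1 had 10.0 (46 tags) and 4.78 (16 tags). PGK1, GPI, PFKM and PFKP were in DMSO only, and HK1 and PKM were new. The CCT chaperonin list was kept at 5 of 7 genes, with CCT5 at 10.3 and 7.58 and CCT4 at 9.64 and 7.56.

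Nucleotide synthesis was at the background, with 9 of 25 genes kept, or 36% (20.2 to 55.5), though 9 of the 15 above 5-fold were. PPAT and PAICS, of purine synthesis, share 1 peak, which had 8.67 in DMSO and 7.22 in trametinib. RPIA, which makes ribose 5-phosphate, had 10.2 (30 tags) in DMSO, in a peak over coding exon 1 at chr2:88691704-88692130 that also serves EIF2AK3. RPIA had no promoter peak in trametinib, where the computed limit was 9 tags. ATIC (8.71, 29 tags), RRM2 (7.16, 31 tags), the smaller subunit of ribonucleotide reductase, and MTHFD1L (6.80, 30 tags) were in DMSO only as well. Polyamine genes were kept at 4 of 7 and amino acid supply genes at 6 of 15. Among the latter the transporters SLC7A5 (6.84 and 4.66) and SLC1A5 (4.96 and 3.98) were kept.

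Mitochondrial and cell cycle lists had kept shares on either side of 35.2%. Mitochondrial ribosome genes had a DMSO promoter peak at 34 of 78, and 8 of these were kept, 23.5% (12.4 to 40.0), all of them above 5-fold. MRPL3 was the strongest, with 12.6 in DMSO (60 tags) and 9.95 in trametinib (38 tags), and MRPL4 (6.77, 29 tags) and MRPL36 (6.24, 29 tags) were in DMSO only. Respiratory complex I kept 2 of 10, NDUFS1 and NDUFB2, and complexes II to V kept 2 of 15, UQCRH and COX15. Mitochondrial import and folding genes were kept at 9 of 18. DNA replication genes were kept at 4 of 17, 23.5% (9.56 to 47.3), and at 4 of 14 above 5-fold. MCM3 (8.50 and 4.97), MCM7 (6.29 and 8.25), POLD2 and ORC6 were kept, while MCM10 (8.57, 25 tags), CDC7 (7.41, 24 tags) and DBF4 (7.01, 24 tags), its activator, were in DMSO only. Cell cycle genes were kept at 3 of 14, CDC25C, E2F3 and AURKB, and CCNA2, CCNE1, CCNE2, CDK6 and E2F1 were in DMSO only. The intervals of these groups held 35.2%.

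In the 35 lists compared, those whose interval lay wholly above 35.2% were MYC targets, both ribosomal subunits, translation factors, splicing factors, glycolysis, the CCT chaperonin, aminoacyl-tRNA synthetases and ribosome biogenesis. No list had an interval wholly below it. The 35.2% takes no account of DMSO strength, and among all genes above 5-fold in DMSO 48.5% were kept. Whether the lists named exceed genes of like strength was not tested. The lists share genes such as NPM1, NCL, NME1 and EIF4A1, and the intervals were not adjusted for the number of lists.

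Lipid synthesis was of interest because the study asked about lipid homeostasis. Of its 13 genes 6 had a promoter peak in each library, 4 of them the same. ACACA, acetyl-CoA carboxylase, had 3 promoter peaks in DMSO, of which the strongest (4.57, 17 tags) lay at another start than the trametinib peak (5.65, 18 tags). The DMSO peak that overlapped the trametinib peak had 4.03 (16 tags). LSS, lanosterol synthase, had 7.05 (31 tags) and 4.66 (18 tags), and KDSR, of sphingolipid synthesis, 4.72 (18 tags) and 4.64 (14 tags). FASN, fatty acid synthase, had 6.04 (32 tags) and 4.77 (20 tags), but these peaks did not overlap. The DMSO summit lay at −356 bp from the canonical start, 4 bp before an E-box, and the trametinib summit at −1038 bp, in a window without either motif. The citrate carrier SLC25A1 (3.85) and the elongase ELOVL1 (5.41) were in DMSO only, and SQLE (4.13, 10 tags) and TECR (4.32, 15 tags) were new. FDFT1, FDPS, HSD17B12, SPTLC1 and SPTLC2 had no promoter peak in either library. The kept share of 66.7% rests on 6 genes (30.0 to 90.3). With canonical starts only, or with overlapping peaks required, 3 of 6 were kept. With a fold enrichment above 5 required in both lists 0 of 3 were kept, 27.1 points under the share of all genes.

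The wider lipid lists were near the background. Of 9 genes of fatty acid synthesis and elongation in DMSO, FASN, ACACA and MCAT (5.18 and 5.70) were kept, and ACLY, ATP-citrate lyase (5.66, 19 tags), HACD1 (6.55, 19 tags) and the desaturase SCD (4.10, 15 tags) were among the 6 in DMSO only. Cholesterol synthesis had 3 of 20 genes in DMSO, of which LSS was kept and PMVK (4.41) and CYP51A1 (4.62) were not, and SQLE was new. Genes without a promoter peak in either library included ACAT2, HMGCS1, MVK, MVD, IDI1, FDPS, FDFT1, TM7SF2, MSMO1, NSDHL, HSD17B7, EBP, SC5D and DHCR7. The list of SREBP regulators holds the SREBP transcription factors, which switch on lipid synthesis, and genes related to them, not all of them regulators. Of these, SREBF1 (7.15 and 3.87, 34 and 16 tags) and MBTPS2 (6.90 and 3.71, 18 and 11 tags) were kept. SREBF2 (4.24), MBTPS1 (4.38) and PNPLA3 (5.52) were in DMSO only, INSIG1 (3.93, 13 tags) was new, and SCAP, INSIG2 and LPIN1 had none. In sphingolipid synthesis, KDSR, CERS4 (4.36 and 4.08) and SGMS1 (4.19 and 4.20) were kept of 9 genes, and SPTSSA, CERS1, CERS2, CERS6, SGMS2 and ORMDL1, at 3.59 to 5.20, were in DMSO only, while SPTLC1, SPTLC2, SPTLC3, SPTSSB, CERS5, DEGS1, UGCG, CERT1, ORMDL2 and ORMDL3 had none. Most of these peaks held under 20 tags.

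Genes of the pathway that trametinib blocks gave no clear group. The ERK feedback and output genes had a DMSO promoter peak at 5 of 18. SPRED1, an inhibitor of RAS signalling, was kept, with 5.70 (16 tags) and 6.01 (15 tags). DUSP5 (4.31), a phosphatase of ERK, SPRY1 (5.72), ETV4 (5.34) and EPHA2 (3.64) were in DMSO only, and SPRED2 (5.39, 13 tags) was new. DUSP4, DUSP6, SPRY2, SPRY4, SPRED3, ETV1, ETV5, PHLDA1, EPHA4, CCND1, IER3 and SOCS1 had none in either library. Immediate early factors were kept at 3 of 10, FOSL1 (5.03 and 4.67), KLF4 (7.77 and 5.81) and ELK4 (8.44 and 3.81), and FOS, FOSL2, EGR3, ATF3, NR4A2, SRF and ELK3 were in DMSO only. Kinases, adaptors and regulators of the RAS to ERK chain were kept at 5 of 12, among them NF1 (8.37 and 6.50), and MAP2K2 and MAPK3 were in DMSO only. BCL2 family genes were kept at 4 of 8, with BCL2L11, which encodes the death factor BIM, at 7.90 and 8.44 and BCL2 at 8.57 and 4.67.

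Proteasome genes were kept at 2 of 12, or 16.7% (4.70 to 44.8), and lysosome and autophagy genes at 3 of 18, or 16.7% (5.84 to 39.2), and both intervals held 35.2%. With a fold enrichment above 5 required in both lists 2 of 5 proteasome genes were kept, 12.9 points above the share of all genes. In these lists BECN1 and PSME3 share 1 peak, with 10.6 in DMSO and 7.97 in trametinib. Circadian clock genes were kept at 4 of 7, PER2, NR1D2, CSNK1D and CSNK1E, and zinc finger genes at 41 of 137, 29.9% (22.9 to 38.1). Of 391 olfactory receptor genes, which serve in the nose, 1 had a DMSO and 2 a trametinib promoter peak.

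The strongest promoters in DMSO only were at MSN, POLR1B, CAMKK2, RPIA, AEN, GCFC2, CLUAP1, SLC25A33, RPP40 and TMEM131L. MSN, which links actin to the membrane, had 11.7 and 29 tags (19.4 to 41.6) in a peak at chrX:65667309-65667625, with its summit at −141 bp from the start. The computed limit in trametinib was 8 tags there. CAMKK2, a kinase that activates AMPK, had 10.4 and 32 tags (21.9 to 45.2) against a limit of 9, in a peak at chr12:121296279-121296693 in intron 1. AEN, a nuclease, had 10.0 and SLC25A33, a mitochondrial pyrimidine carrier, 9.71. Of the 10 summits 6 had an E-box within 100 bp, compared with 13.5% of all DMSO-only promoter peaks, and these 10 were chosen for their strength.

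Among overlapping promoter peaks, the largest falls in fold enrichment were at PRMT1, CPNE7, NME1-NME2, GEMIN7 and PRDM15. PRMT1, an arginine methyltransferase, had 12.0 in DMSO (62 tags) and 4.20 in trametinib (14 tags), a log2 ratio of −1.52. PRDM15 had 14.1 (75 tags) and 5.69 (20 tags). NME1-NME2 is a read-through gene at the start of NME1 and uses the same peak. All 5 trametinib summits had an E-box within 100 bp, and at the 5 largest increases 1 did. The 5 falls started in the strongest decile of DMSO fold enrichment, where 255 of all 749 promoter peaks had an E-box at the DMSO summit. The largest increases were at SLC19A1, AGPAT3, TRNT1, TAF12 and ATAD3A, with log2 ratios of 0.83 to 0.99. SLC19A1, the reduced folate carrier, had 3.43 in DMSO (15 tags) and 6.81 in trametinib (23 tags). TRNT1, which adds CCA to tRNA, had 4.90 (13 tags) and 9.48 (23 tags), and AGPAT3 had 3.42 (15 tags) and 6.71 (23 tags). The counting intervals of these pairs overlapped, at 6.92 to 22.2 tags and 14.6 to 34.5 tags for TRNT1.

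New promoter peaks had a median of 13 tags. The strongest were at COX10, ICE2, RTTN, CBX5, ZKSCAN2, NFE2L1, TTC28, KDM4B, TACC2 and TMEM222. COX10, of heme A synthesis, had 8.12 and 23 tags (14.6 to 34.5), and ICE2, of the little elongation complex, 7.61 and 18 tags. The CBX5 peak overlapped a DMSO peak and counts as new because its summit fell within 1 kb of the CBX5 start, and it serves HNRNPA1 as well. Of the 10 summits 1 had an E-box within 100 bp.

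Of 88 histone genes 15 had a promoter peak in DMSO and 2 of these, among them H4C8 (3.74 and 4.81), in trametinib, or 13.3% (3.74 to 37.9), an interval that held 35.2%. A further 12 were new, 16.4% of the 73 without a DMSO peak, against 4.33% of all genes without a DMSO promoter peak. H4C13, among the new genes, had an IgG promoter peak as well. Other lists had like shares of new genes, such as the proteasome with 4 of 25. Neighbouring histone genes share promoters, so the 15 genes in DMSO rest on 11 peaks and the 14 in trametinib on 10. H2AC4 was the strongest new gene, at 5.62 (18 tags), followed by H2AC15 with H2BC15 (5.06, 17 tags). In DMSO only the strongest were H2AX (7.44, 20 tags) and H3C13 with H2BC18 (6.22, 15 tags). These genes come in near-identical copies, and how reads were divided among them is uncertain.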

How the data were processed

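Per the labels and the study's methods, chromatin of MIA PaCa-2 cells was immunoprecipitated with a c-MYC antibody or IgG and sequenced in pairs. The submitters' processing notes name Trimmomatic 0.39, BWA 0.7.17, SAMtools 1.9, Picard, MACS2 2.2.7.1 and bedtools 2.27.1. The authors deposited 1 list of MACS2 peaks per library, each called against its own local background, with the fold enrichment (a ratio), −log10 p-values, −log10 q-values and a score of 10 times −log10 q. All 4 lists were on GRCh38.

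Pileups were recovered from the fold enrichment and the −log10 p as whole numbers (tolerance 0.001). Both mates may count as tags, so intervals for tags may be too narrow. Promoters were 1 kb around starts of protein-coding transcripts in GENCODE 44, without chrM. Shares have Wilson intervals, differences of shares Newcombe intervals and tags exact Poisson intervals, at 95%. Groups came from the labels, with 1 library each, so no test was made. Scripts (Python 3.11.15, pandas 2.3.3, scipy 1.17.1, statsmodels 0.14.6, pysam 0.24.0) were tested on simulated data.

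Gene lists and comparisons were chosen with earlier results of these data known. Named were the members of the lists for lipid synthesis, cholesterol synthesis, SREBP regulators, sphingolipid synthesis, MYC targets, the MYC network and ERK feedback, the 10 strongest kept, DMSO-only and new promoters, the 5 largest falls and rises among overlapping peaks, and the strongest members of the other lists. Alternatives varied the peak threshold, the overlap, IgG peaks, the promoter and the motif window. Single members of some lists are not reported here by name.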

Additional observations from a re-analysis of the deposited data

How the results depend on the processing

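No paired analysis was possible because each treatment had 1 library, and for the same reason no replicate could be left out. The share of DMSO peaks with a trametinib peak (17.1%) was 23.7% at a score above 60, 21.1% at a fold enrichment above 5, 15.9% when the overlap had to cover 50% of the shorter peak or when peaks on IgG peaks were left out, 21.5% with a gap of up to 1 kb and 27.2% with lists of 5431 peaks each. The share of trametinib peaks with a DMSO peak (30.6%) was 68.7%, 42.1%, 28.4%, 28.8%, 35.9% and 27.7% in the same order of settings. The share of genes kept (35.2%) was 23.2% at a score above 60, 27.1% at a fold enrichment above 5, 41.8% with lists of equal length, 33.3% with 500 bp around starts and 30.3% when the peaks had to overlap. The share of new genes (4.33%) was 0.733%, 1.80%, 5.19% and, with canonical starts, 3.91%. The promoter difference (20.5 points) was −9.27 at a score above 60, 10.0 at a fold enrichment above 5, 18.7 with the wider overlap and 23.3 without IgG peaks. Chosen after seeing the data, leaving out IgG peaks at a score above 60 gave 20.1%, 65.3% and 7.09 points, and at a fold enrichment above 5 it gave 18.7%, 38.8% and 17.8 points. The E-box difference (12.6 points) was 17.9 with CACGCG counted and 7.70 within 50 bp. Against all genes, the kept share changed sign at a fold enrichment above 5 for complex I (1.47 points), mitochondrial import (−7.11), proteasome (12.9), lipid synthesis (−27.1), ERK feedback (6.23), amino acid supply (−17.1) and the BCL2 family (−7.11), and with overlap required for cholesterol synthesis, SREBP regulators and sphingolipid synthesis (each 3.05) and the RAS-ERK pathway (−5.29). The lists that changed sign were short, with 3 to 10 genes at a fold enrichment above 5 and 3 to 12 with overlap required. The causes were not tested.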
